A study of Arabidopsis thaliana with 21 samples.

Results

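The genes described here flank ASIL1 (AT1G54060) on chromosome 1 of Arabidopsis thaliana. They are the loci AT1G53600 to AT1G54600 in the order of their identifiers, without ASIL1 itself and without AT1G54040 (ESP), and with a mean of at least 0.5 CPM, the counts of a gene scaled to the library total, over all 21 libraries. Of 98 such loci in the count files, 70 met that limit, out of 19183 loci that met it in the whole genome. GLIP3 lay just inside it with a mean of 0.582 CPM, and AT1G53860 just outside it with 0.475 CPM. In TAIR10.1, 69 of the 70 are annotated, and they span chr1:20001236-20391147, or 389.9 kb. AT1G53785 has counts but no entry in that annotation, so its position is not given.

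Polyadenylated RNA was sequenced from seedlings grown for 14 days on sucrose-free medium, in long days of 16 hours at 22 °C, in 7 groups of 3 libraries that the series describes as biological replicates. The single mutant asil1-1, the double mutant asil1-1 asil2-1 and the single mutant asil2-1 are in the Col-0 (Columbia-0) ecotype, and so is the wild type Col-0. The single mutant asil2-2 is in the Ler (Landsberg erecta) ecotype, as is the wild type Ler. The double mutant asil1-1 asil2-2 carries an allele of each ecotype, and its ecotype is labelled as both. Each mutant is a single line in the labels, which do not say how the double mutants were made or how often they were backcrossed.

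ASIL1 and its relative ASIL2 are trihelix transcription factors, and ASIL1 is known as a repressor of seed maturation genes in seedlings that binds the GT element GTGATT. When an allele found in one ecotype is crossed into another, the chromosome around it is inherited with it until recombination separates them, so genes close to the allele can keep the sequence of the first ecotype. An insertion or rearrangement can also change the expression of the genes beside it. The neighbourhood of ASIL1 holds a run of GDSL lipase genes on one side, and on both sides genes of protein turnover, RNA metabolism, transcription and organelle metabolism.

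Sequence is shown from 3 places, the first because it is all that separates ASIL1 from its nearest neighbour, the second because it lies before the start of AT1G53645, the member that was higher wherever asil1-1 was added, and the third because the 2 genes that start from it differed in opposite directions between the wild types. All were read from the RefSeq sequence of TAIR10.1 and are written 5′ to 3′. The first is chr1:20180567-20180609 on the plus strand, between the starts of AT1G54050 and ASIL1. The second is chr1:20028757-20028922 on the minus strand, from the end of CID8 to the start of AT1G53645. The third is chr1:20081465-20081643 on the plus strand, between the starts of AT1G53790 and AT1G53800. Capitals mark CACGTG, the core of the G-box, and TATAAA.
Between AT1G54050 and ASIL1: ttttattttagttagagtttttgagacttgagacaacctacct
Upstream of AT1G53645: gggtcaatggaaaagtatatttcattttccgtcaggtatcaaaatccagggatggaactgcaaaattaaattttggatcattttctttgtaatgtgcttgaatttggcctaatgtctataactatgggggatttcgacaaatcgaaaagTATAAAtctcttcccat
Between AT1G53790 and AT1G53800: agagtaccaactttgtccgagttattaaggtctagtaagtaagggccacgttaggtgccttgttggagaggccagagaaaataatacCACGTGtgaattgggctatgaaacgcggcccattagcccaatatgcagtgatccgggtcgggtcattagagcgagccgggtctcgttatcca

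None of these stretches holds GTGATT on either strand. Over windows of 250 bases before to 50 bases after each gene's start, GTGATT or its reverse complement AATCAC was present in 10 of 69 members (14.5%) and in 18.5% of all 27444 protein-coding genes. CACGTG was present in 7 of 69 members (10.1%) and in 7.7% of all, and TATAAA or TTTATA in 30 of 69 members (43.5%) and in 52.2% of all.

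The libraries held 6522764 to 28794135 counts. ASIL1 itself was low in every library labelled asil1-1. It averaged 4.83 ± 0.314 CPM in asil1-1, 5.66 ± 1.13 CPM in asil1-1 asil2-2 and 8.01 ± 0.639 CPM in asil1-1 asil2-1, against 40.4 ± 5.32 CPM in asil2-1, 37.9 ± 3.91 CPM in asil2-2, 33.0 ± 3.32 CPM in Ler and 33.6 ± 1.25 CPM in Col-0 (SD, n = 3 each). Root marker levels varied between libraries. The summed level of 12 root markers was 7.33 to 13.5 CPM in asil1-1, 17.4 to 33.9 CPM in asil1-1 asil2-2, 4.96 to 29.3 CPM in asil1-1 asil2-1, 6.05 to 23.6 CPM in asil2-1, 9.34 to 26.5 CPM in asil2-2, 14.0 to 39.9 CPM in Ler and 24.0 to 84.9 CPM in Col-0. At most 3 of the 12 were at 0 in any library. CASP5 was at 0 in 11 libraries and RHD6, EXPA18, PLT1 and EXPA7 in 1 to 3 each. The summed level of 6 green shoot markers was 34900 to 41100 CPM in asil1-1, 26500 to 29400 CPM in asil1-1 asil2-2, 26400 to 29300 CPM in asil1-1 asil2-1, 25000 to 30000 CPM in asil2-1, 32400 to 41500 CPM in asil2-2, 37200 to 39300 CPM in Ler and 38200 to 47000 CPM in Col-0. It was thus lower in every library of asil1-1 asil2-2 than in any of asil2-2, Ler or Col-0, and lower in every library of asil1-1 asil2-1 and asil2-1 than in any of Col-0. The part of shoot marker levels in the results was not tested. In bulk seedling RNA, fewer cells of a type and less RNA per cell cannot be told apart.

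Effects of the asil1-1 allele can be looked for in asil1-1 against Col-0, in asil1-1 asil2-1 against asil2-1 and in asil1-1 asil2-2 against asil2-2. These 3 comparisons share no library. A local effect of the allele cannot be told apart in them from an effect of low ASIL1 itself. AT1G53645 was higher in all 3 comparisons. It encodes a hydroxyproline-rich glycoprotein family protein and starts at -151.85 kb, counted from the start of ASIL1. Its level was 42.7, 44.8 and 49.1 CPM in asil1-1, against 23.0, 21.4 and 20.5 CPM in Col-0. In asil1-1 asil2-1 it was 41.2, 43.8 and 42.2 CPM, against 20.5, 20.2 and 19 CPM in asil2-1. In asil1-1 asil2-2 it was 52.5, 49.8 and 59.3 CPM, against 32.7, 25.6 and 28.4 CPM in asil2-2. Every library with asil1-1 lay above every library without it, Ler included, where the level was 30.2, 28.9 and 26.1 CPM.

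On the log2 scale the difference in AT1G53645 was 1.07 ± 0.104 (SE) in asil1-1 against Col-0, with an adjusted p of 1.128e-06 by edgeR's quasi-likelihood test with Benjamini-Hochberg adjustment over the 19589 genes tested. It was 1.09 ± 0.101 in asil1-1 asil2-1 against asil2-1, with an adjusted p of 4.74e-07 by the same test. In asil1-1 asil2-2 against asil2-2 it was 0.90 ± 0.0977, with an adjusted p of 5.511e-07. Under every alternative tried the gene kept its call, with log2 differences of 1.01 to 1.16, 1.06 to 1.11 and 0.82 to 0.99 in the same order. The effect of asil1-1 in asil2-1 minus that in Col-0 was 0.02 ± 0.144, with an adjusted p of 0.9492, and the test does not show that the effects are equal.

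**Figure D1:**
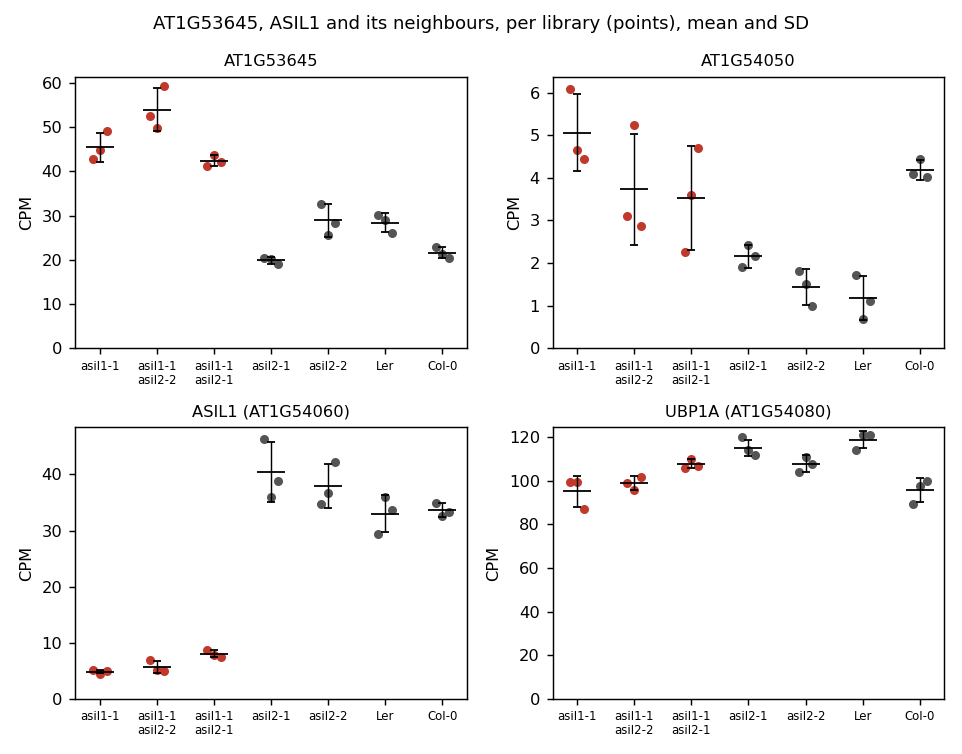
Level in CPM of AT1G53645, AT1G54050, ASIL1 and UBP1A in asil1-1, asil1-1 asil2-2, asil1-1 asil2-1, asil2-1, asil2-2, Ler and Col-0; points are the 3 libraries of a group, red where the line is labelled asil1-1, and lines are the mean and SD. For AT1G53645 the 9 libraries with asil1-1 lie between 41.2 and 59.3 CPM and the other 12 between 19 and 32.7 CPM, while for UBP1A all groups lie between 87.1 and 121 CPM.

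AT1G53645 was the 1 member of 70 (1.43%) higher in all 3 comparisons, beside 199 of 19589 genes (1.02%) over the genome. No member was lower in all 3 by edgeR, at an unadjusted p under 0.05 or by DESeq2, beside 20 genes over the genome. AT1G54380, a spliceosome-like protein, was higher in asil1-1 and in asil1-1 asil2-1 but not called in asil1-1 asil2-2. Its level was 22.0, 22.6 and 23.9 CPM in asil1-1 against 20.2, 14.5 and 18.8 CPM in Col-0, a log2 difference of 0.36 ± 0.111 with an adjusted p of 0.03076 by edgeR. It was 24.5, 23.8 and 21.1 CPM in asil1-1 asil2-1 against 17.8, 17.0 and 17.1 CPM in asil2-1, a log2 difference of 0.42 ± 0.106 with an adjusted p of 0.01897 by edgeR. In both pairs the libraries did not overlap, but the first call held under 7 of 16 alternatives and the second under 11 of 15.

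The nearest member on either side of ASIL1 was not called in asil1-1 against Col-0 or in asil1-1 asil2-1 against asil2-1. AT1G54050, an HSP20-like chaperone, lies on the opposite strand and is separated from the start of ASIL1 by 43 bases. It had 6.09, 4.66 and 4.43 CPM in asil1-1 against 4.09, 4.44 and 4.01 CPM in Col-0, a log2 difference of 0.28 ± 0.307 with an adjusted p of 0.5662 by edgeR. It had 2.26, 3.59 and 4.70 CPM in asil1-1 asil2-1 against 1.90, 2.43 and 2.16 CPM in asil2-1, a log2 difference of 0.70 ± 0.315 with an adjusted p of 0.2308. The libraries overlapped in both pairs. On the other side AT1G54070 lies closest, but its mean of 0.02 CPM was below the limit for members. UBP1A, the nearest member there, which binds oligouridylate stretches in RNA, had 99.3, 99.7 and 87.1 CPM in asil1-1 against 89.4, 97.8 and 100 CPM in Col-0. It had 106, 110 and 107 CPM in asil1-1 asil2-1 against 120, 114 and 112 CPM in asil2-1, and the log2 differences were -0.01 ± 0.0802 and -0.10 ± 0.079. Counting error was larger for AT1G54050, which had 94 to 159 counts per group in these 4 groups, than for UBP1A, which had 2702 to 4892.

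Of the other near neighbours 1 was called in these 2 comparisons. EXO70D2 of the exocyst, ALDH7B4, an aldehyde dehydrogenase, AT1G54110, a Use1-like membrane fusion protein, and CCX4, a cation calcium exchanger, lie beyond UBP1A, and none was called. On the side of AT1G54050 the next members are MVP1, AT1G54020, AT1G54010 and GLL22, all GDSL lipases, and GLL22 was the one called. It had 3.95, 2.57 and 3.22 CPM in asil1-1, against 21.7, 40.2 and 10.4 CPM in Col-0. In asil1-1 asil2-1 it had 8.05, 2.28 and 1.57 CPM, against 2.80, 9.15 and 7.13 CPM in asil2-1. The groups were apart in the first pair, with a log2 difference of -2.88 ± 0.624 and an adjusted p of 0.006654 by edgeR, and overlapped in the second, where GLL22 was not called. The first call was lost with a root marker score in the model, and when replicate 3 stood alone for Col-0.

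In asil1-1 against Col-0, 9 members were higher and 6 lower, or 21.4% of the 70, beside 17.3% of all genes tested. Of all genes 8.91% were higher and 8.35% lower. Besides AT1G53645 and AT1G54380, the higher members were AT1G53800, PES1, a phytyl ester synthase of the chloroplast, ABCD2, an ABC transporter, XRN4, the cytoplasmic exoribonuclease, AT1G54260, AT1G53780 and AT1G53785. Their log2 differences lay between 0.26 and 0.70, and the call of AT1G53780 held under 3 of 16 alternatives. ABCD2 shares 1823 bases with the non-coding RNA gene AT1G54355 on the other strand, so its counts are less certain. The lower members besides GLL22 were AT1G53625, the pectin methylesterase PME2, the LEA-like protein AT1G54540, the glutathione transferase GSTU28 and the acyl carrier protein ACP2. PME2 had 0.474, 0.571 and 0.268 CPM in asil1-1 against 5.17, 5.10 and 1.19 CPM in Col-0, a log2 difference of -3.05 ± 0.704 with an adjusted p of 0.006442 by edgeR.

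How many of these calls held depended on the libraries used, of asil1-1 as well as of Col-0. Replicates 1 and 2 of Col-0 had root marker scores of 1.64 and 1.70, and replicate 3 had 0.31, against -0.25, -1.06 and -1.0 in asil1-1, where the score is the mean over root markers of the log2 level relative to that marker's mean over all libraries. With the score in the model 1 of the 15 calls was left, AT1G53645. A fit with replicate 3 alone for Col-0 has 1 library in that group, so calls lost there can reflect fewer libraries. Leaving out asil1-1 replicate 2 or 3 gave 9 and 7 calls, all among the 15. Leaving out Col-0 replicate 1 or 2 gave 9 and 8, also all among the 15, and leaving out Col-0 replicate 3 gave 19, of which 14 were among the 15. In what way root content and the other calls are related was not tested.

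In asil1-1 asil2-1 against asil2-1, where root scores overlapped, 3 members were higher and 2 lower, or 7.14% of the 70, beside 6.21% of all genes, 3.17% higher and 3.04% lower. Besides AT1G53645 and AT1G54380, AT1G54220, an acetyltransferase subunit of the pyruvate dehydrogenase complex, was higher. It had 38.8, 38.9 and 34.5 CPM in asil1-1 asil2-1 against 29.5, 29.6 and 30.6 CPM in asil2-1, a log2 difference of 0.32 ± 0.0916 with an adjusted p of 0.03741 by edgeR. RAP2.12, an ethylene response factor of low-oxygen signalling, was lower with 95.2, 89.6 and 96.3 CPM in asil1-1 asil2-1 against 125, 119 and 112 CPM in asil2-1, a log2 difference of -0.34 ± 0.0828. RSH3, an enzyme of guanosine tetraphosphate metabolism in the chloroplast, was lower with 88.0, 94.6 and 82.1 CPM in asil1-1 asil2-1 against 113, 119 and 112 CPM in asil2-1, a log2 difference of -0.38 ± 0.093. The libraries of these 3 genes did not overlap, but of the 5 calls AT1G53645 alone held under all 15 alternatives. Without replicate 1 of asil1-1 asil2-1, or without replicate 2 of asil2-1, it was the only call. RSH3 shares 44 bases with TAFII21 on the other strand, and a stretch of RAP2.12 has a near-identical copy in AT1G53887, so their counts are less certain.

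Calls by distance from ASIL1 were as follows in the Col-0 lines. Of members whose start lies within 50 kb of the start of ASIL1, 1 of 20 was called in asil1-1 against Col-0, 3 of 16 between 50 and 100 kb, and 10 of 33 farther out. In asil1-1 asil2-1 against asil2-1 the counts were 2 of 20, 1 of 16 and 2 of 33. The median size of the log2 difference was 0.23, 0.22 and 0.22 in the first comparison and 0.25, 0.18 and 0.10 in the second, from near to far. Over all genes the median size was 0.245 in the first comparison and 0.179 in the second. From near to far, 5.0%, 18.8% and 30.3% of members were called in asil1-1 against Col-0, beside 17.3% of all genes. In asil1-1 asil2-1 against asil2-1 the shares were 10%, 6.25% and 6.06%, beside 6.21% of all genes. These are small counts, most calls of the first comparison were lost with the root score in the model, and a trend with distance was not tested.

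**Figure D2:**
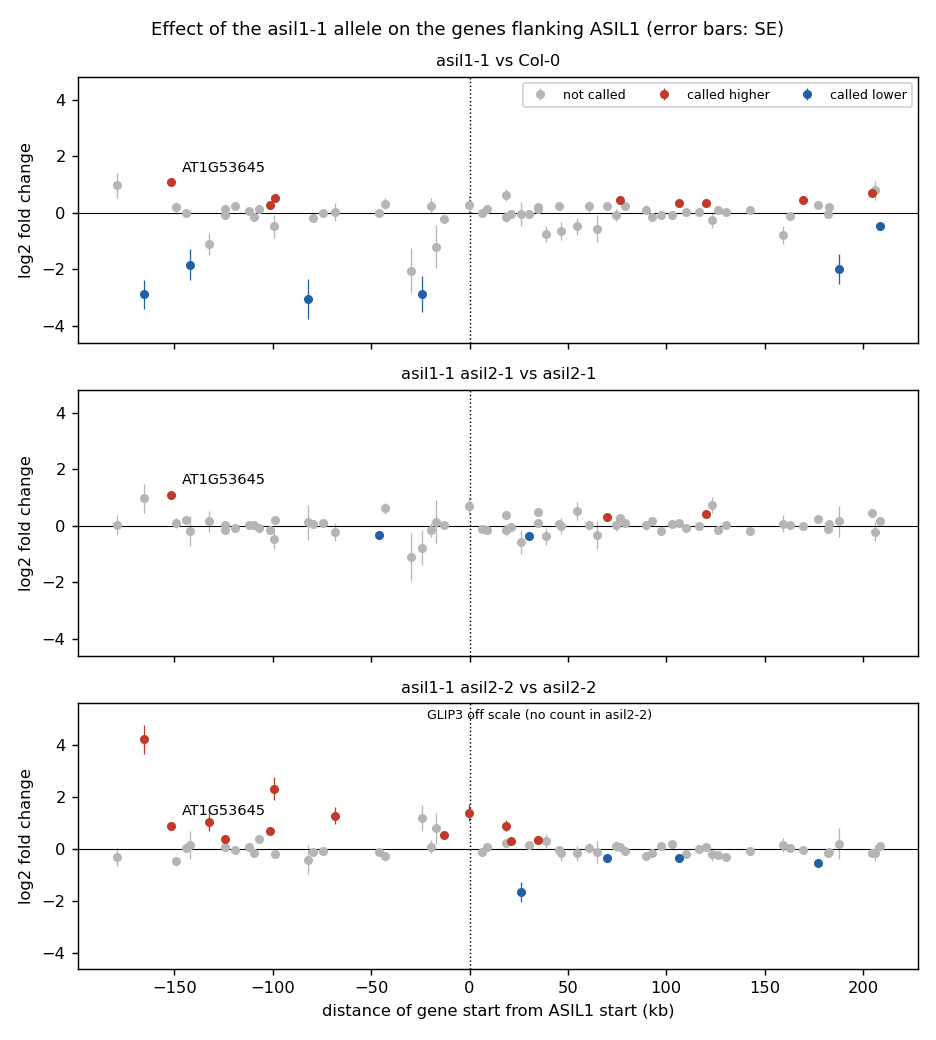
Log2 difference of each of the 69 placed members against the distance of its start from the start of ASIL1 in kb, in asil1-1 against Col-0, asil1-1 asil2-1 against asil2-1 and asil1-1 asil2-2 against asil2-2; red points are members called higher, blue points members called lower, and bars the SE. GLIP3 is off the scale in the last panel, since asil2-2 had no count of it. AT1G53645, at -151.85 kb, is called higher in each panel, at 1.07, 1.09 and 0.90.

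The effect of asil1-1 differed between the Col-0 and the asil2-1 background for 2 of the 70 members (2.86%), beside 4.55% of all genes, 2.22% higher and 2.33% lower, by edgeR's test of the difference itself. AT1G53625, an uncharacterised protein, had 1.42, 1.04 and 0.997 CPM in asil1-1 asil2-1 against 0.722, 0.423 and 0.641 CPM in asil2-1. It had 0.316, 0.857 and 0.268 CPM in asil1-1 against 4.21, 5.10 and 1.74 CPM in Col-0. The libraries were apart in both pairs, in opposite directions. They were apart for 26.7% of all genes in the first pair and for 34.8% in the second. In asil1-1 asil2-1 against asil2-1 AT1G53625 was not called, nor was it under any of 15 alternatives. The difference of the log2 effects was 3.87 ± 0.739 with an adjusted p of 0.009508 by edgeR. It was 3.27 with an adjusted p of 0.0708 when the root score was in the model, and 2.77 with an adjusted p of 0.264 when replicate 3 stood alone for Col-0.

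For AT1G53785 the difference of the log2 effects was -0.93 ± 0.267, with an adjusted p of 0.04996. Its level was 20.5, 20.7 and 20.9 CPM in asil1-1 asil2-1 against 25.2, 23.2 and 24.9 CPM in asil2-1, and 22.1, 28.7 and 26.6 CPM in asil1-1 against 13.2, 18.3 and 15.9 CPM in Col-0. The call of this difference stood at the threshold, and leaving out any library of these groups other than asil1-1 replicate 1 ended it. In asil1-1 asil2-1 against asil2-1 AT1G53785 was not called, nor was it under any of 14 alternatives.

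In asil1-1 asil2-2 against asil2-2, 13 members were higher and 4 lower, or 24.3% of the 70, beside 23.3% of all genes, 13.4% higher and 9.85% lower. Here 7 of the 20 members within 50 kb were called, 3 of the 16 between 50 and 100 kb, and 7 of the 33 farther out. This pair differs in ASIL1 and also in ecotype, since the label of asil1-1 asil2-2 names both ecotypes, and the effects of the allele and of ecotype cannot be told apart within it. Of the 17 calls, 12 held under all 15 alternatives. MVP1, which has a role in the organisation of the secretory pathway, had 59.5, 78.1 and 75.9 CPM in asil1-1 asil2-2, against 46.5, 45.9 and 54.3 CPM in asil2-2 and 41.4, 42.2 and 36.1 CPM in Ler. It was also above the 49.6, 48.1 and 41.6 CPM of Col-0, so its level in the double mutant lay outside the range of both wild types. ALDH7B4, known from responses to water deficit, had 320, 189 and 308 CPM in asil1-1 asil2-2 against 122, 163 and 153 CPM in asil2-2, a log2 difference of 0.90 ± 0.214 with an adjusted p of 0.004748 by edgeR.

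The wild types themselves differed at many of these genes. In Ler against Col-0, 15 members were higher and 16 lower, or 44.3% of the 70, beside 36.1% of all genes, 17.9% higher and 18.3% lower. For 11 of them the log2 difference was at least 1 in size. These 11 were used to place asil1-1 asil2-2 between the wild types with an index that is 0 at the mean log2 level of Col-0 and 1 at that of Ler. The 11 were chosen by the wild types' difference, which is therefore a description, while the libraries of asil1-1 asil2-2 had no part in the choice.

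The median index was 0.24, on the side of Col-0, and 0.49, 0.27 and 0.29 in the 3 libraries. The members fell into 2 sets. The index was between -0.54 and 0.24 for AT1G53625, AT1G53790, AT1G53870, GLIP3, AT1G54050 and AT1G54120, which start between -165.57 and 26.32 kb from ASIL1. It was 0.79 for AT1G53600, 1.12 for GSTU28, 1.22 for AT1G54540, 0.82 for PES1 and 0.96 for ACP2, whose starts lie at -179.37, -142.29, 187.9, 204.77 and 208.74 kb. With a minimum log2 difference of 0.5 in place of 1, 25 members had an index and the median was 0.60. With replicate 3 standing alone for Col-0 it was 0.47 for the 11.

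**Figure D3:**
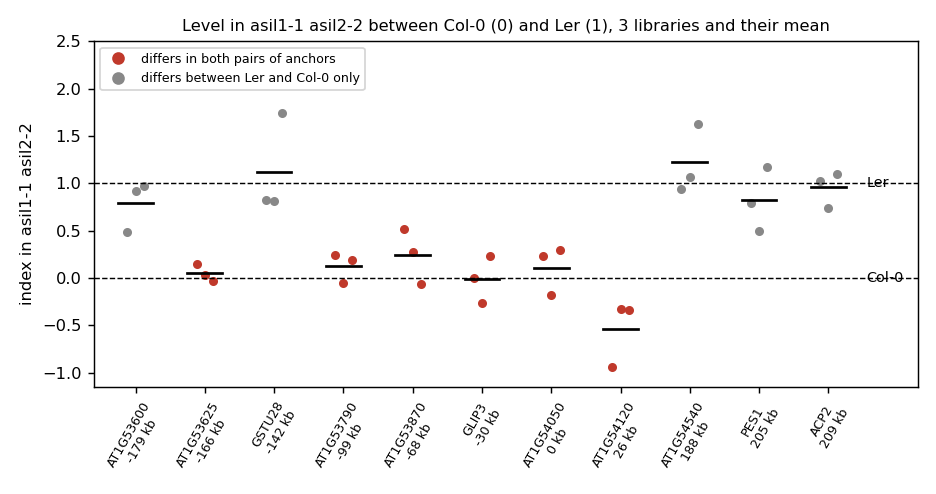
Index of asil1-1 asil2-2 between Col-0 (0) and Ler (1) for the 11 members that differed by at least 1 on the log2 scale, ordered along the chromosome with the distance of each start from ASIL1 in kb; points are the 3 libraries and lines their mean, red for the 6 members that also differed between the second pair of anchors. From AT1G53625 to AT1G54120 the index is at or below 0.24 in 6 members, with GSTU28 at 1.12 among them.

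For the first 6, asil1-1 asil2-2 stood apart from both Ler groups. These 6 were grouped by their index, so distance from Ler and nearness to Col-0 were part of the grouping. Their tests against Ler and Col-0 reuse the same libraries and are a description. The libraries of asil2-2 had no part in the grouping, but those of asil1-1 asil2-2 did. AT1G53790, an F-box protein, had 1.31, 2.59 and 1.47 CPM in asil1-1 asil2-2, against 0.654, 0.327 and 0.147 CPM in asil2-2 and 0, 0.251 and 0.298 CPM in Ler. Col-0 had 1.93, 3.02 and 2.06 CPM. The log2 difference was 2.33 ± 0.439 against asil2-2 and 2.96 ± 0.494 against Ler, with adjusted p of 0.0005165 and 0.0001104 by edgeR, and -0.38 ± 0.379 against Col-0 with an adjusted p of 0.467. This gene has a stretch of 160 bases that is 95% identical to RPT1A, and it had 11 counts in all in Ler.

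AT1G53800, which starts from the same 179 bases printed above, moved the other way between the wild types, with 90.5, 95.4 and 104 CPM in Ler against 60.4, 55.2 and 67.6 CPM in Col-0. Its level in asil1-1 asil2-2 was 83.8, 77.6 and 79.5 CPM, below Ler by 0.27 ± 0.101 and above Col-0 by 0.40 ± 0.102 on the log2 scale. AT1G53800 shares 963 bases with the non-coding RNA gene AT1G53801 on the other strand, so its counts are less certain. The Col-0 ecotype lines asil1-1, asil1-1 asil2-1 and asil2-1 were also above Col-0, at 82.1 to 112 CPM, so that the difference between the wild types was not one between the ecotypes for this gene.

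AT1G54050, the chaperone next to ASIL1, had 3.10, 5.23 and 2.87 CPM in asil1-1 asil2-2, against 1.82, 1.51 and 0.983 CPM in asil2-2, 1.71, 0.682 and 1.12 CPM in Ler and 4.09, 4.44 and 4.01 CPM in Col-0. It was thus higher than in either Ler group and overlapped Col-0, with an index of 0.11. The log2 difference from asil2-2 was 1.4 ± 0.318, with an adjusted p of 0.002663 by edgeR. In asil1-1 and asil1-1 asil2-1, which carry the same allele in Col-0, it was not called, as given above.

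AT1G53870, a LURP-one-like protein, had 3.58, 4.56 and 6.19 CPM in asil1-1 asil2-2, against 1.23, 2.54 and 1.92 CPM in asil2-2 and 2.34, 2.26 and 2.16 CPM in Ler, and 3.73, 6.23 and 8.68 CPM in Col-0. In the annotation used, all 1711 of its exonic bases are 100% identical to AT1G53890. Exonic sequence therefore cannot tell reads of the 2 genes apart, and the level given can belong to either. AT1G54120, an uncharacterised protein, went the other way. It had 0.757, 1.42 and 1.4 CPM in asil1-1 asil2-2, against 2.83, 4.01 and 4.32 CPM in asil2-2, 4.36, 5.64 and 5.00 CPM in Ler and 1.56, 2.17 and 2.17 CPM in Col-0. All 3 libraries of the double mutant were below those of all the other groups named, with an index of -0.54.

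GLIP3, a GDSL lipase, had no counts in asil2-2 and 4 in Ler. It had 1.17, 1.97 and 0.737 CPM in asil1-1 asil2-2, and 2.29, 1.89 and 0.325 CPM in Col-0. The asil1-1 asil2-2 level was at least 24.9-fold above the level that 3 counts over the asil2-2 libraries would give. The GLIP3 mean of 0.582 CPM, near the limit of 0.5 CPM for members, includes the asil1-1 asil2-2 libraries. GLIP3 passed that limit in part through a group where it was high, so this difference is a description and not independent of the filter. AT1G53625 had 2.55, 3.20 and 3.54 CPM in asil1-1 asil2-2, against 0.290, 0.0409 and 0.197 CPM in asil2-2 and 0.934, 0.503 and 0.224 CPM in Ler, and 4.21, 5.10 and 1.74 CPM in Col-0. These 2 genes were also low in Col-0 ecotype mutants. GLIP3 averaged 0.328 CPM in asil1-1 and 0.256 CPM in asil1-1 asil2-1, and AT1G53625 0.48 and 1.16 CPM, so the asil1-1 asil2-2 libraries of both were above those of the other asil1-1 lines as well as above both Ler groups.

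The 5 members with an index near 1 stood differently. ACP2, the plastid acyl carrier protein, had 34.7, 42.6 and 32.8 CPM in asil1-1 asil2-2, against 32.4, 40.5 and 33.5 CPM in Ler and 68.6, 78.1 and 71.2 CPM in Col-0. It had 42.0, 32.1 and 41.1 CPM in asil1-1 asil2-1 and 31.4, 37.4 and 34.0 CPM in asil2-1, both of the Col-0 ecotype, so Col-0 stood apart from these lines as it did from Ler. PES1 had 33.6, 26.5 and 46.3 CPM in asil1-1 asil2-2, against 42.7, 39.6 and 38.1 CPM in Ler and 15.9, 19.5 and 17.6 CPM in Col-0, and 37.0, 40.6 and 34.5 CPM in asil1-1 asil2-1. AT1G53600, GSTU28 and AT1G54540 showed the same, each with the asil1-1, asil1-1 asil2-1 and asil2-1 means on the Ler side of Col-0. For these 5 genes a level near that of Ler therefore does not tell Ler from Col-0 ecotype.

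**Figure D4:**
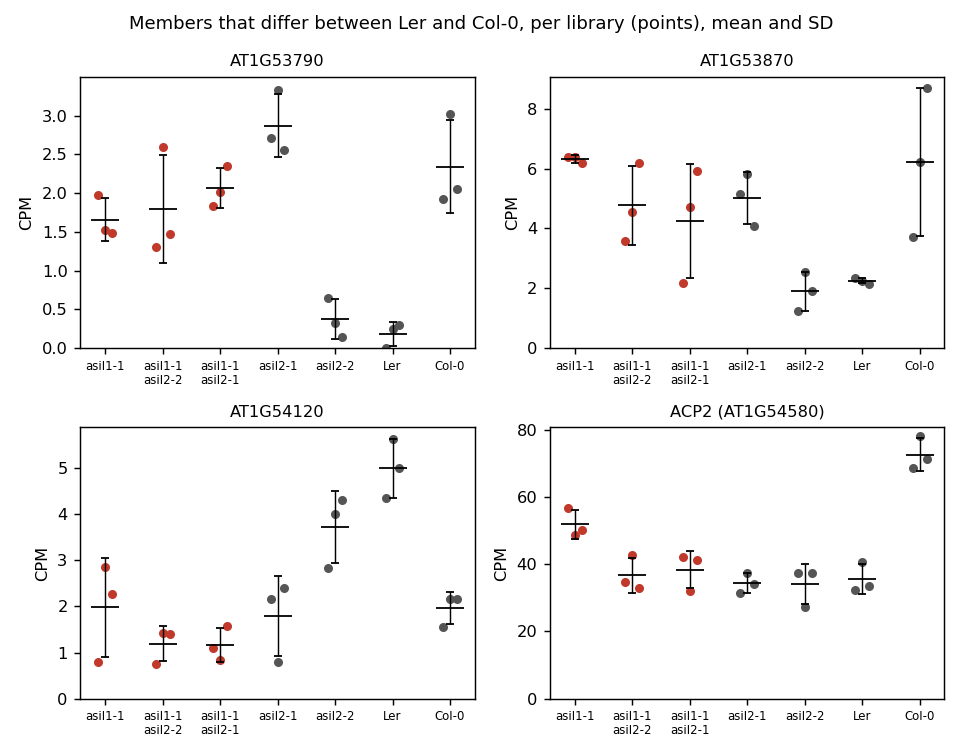
Level in CPM of AT1G53790, AT1G53870, AT1G54120 and ACP2 in asil1-1, asil1-1 asil2-2, asil1-1 asil2-1, asil2-1, asil2-2, Ler and Col-0; points are the 3 libraries of a group, red where the line is labelled asil1-1, and lines are the mean and SD. In the first 3 genes asil2-2 and Ler lie apart from asil1-1 asil2-2, and for ACP2 the Col-0 libraries, at 68.6 to 78.1 CPM, lie above all others.

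A second pair of anchors, asil2-2 as 1 and the mean of asil1-1 and asil1-1 asil2-1 as 0, uses no wild-type library. The 6 members with a low index also differed by at least 1 on the log2 scale between these anchors in the same direction, and the other 5 did not. Over the 6 the median index was 0.08 on the wild types and -0.08 on the second anchors. On the second anchors AT1G53625 and GLIP3 were at -1.26 and -1.34, beyond the asil1-1 lines of the Col-0 ecotype. All 6 kept an index under 0.5 when replicate 3 stood alone for Col-0. In all 6 the asil1-1 asil2-2 libraries did not overlap those of asil2-2 or Ler, and in 1 they did not overlap those of Col-0. Distance from Ler was part of the grouping of the 6, so their lack of overlap with Ler is a description. Over all 70 members, 34.3% did not overlap between asil1-1 asil2-2 and asil2-2, beside 37.2% of all genes, while 24.3% and 23.3% were called. Between asil1-1 asil2-2 and Col-0, 38.6% of members did not overlap, beside 40.7% of all genes. Between asil1-1 asil2-2 and Ler, 40.3% of all genes did not overlap, and the share of members was larger.

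A stricter split asks for no overlap between all 12 libraries of Col-0 ecotype and all 6 of Ler ecotype, leaving out the double mutant of both. It was added after the data were seen, and 5 members met it (7.14%), beside 8.46% of all genes. AT1G53780, a proteasome ATPase-like protein, had 62.7, 60.6 and 69.5 CPM in asil1-1 asil2-2, against 37.6 to 48.2 CPM in the Ler ecotype and 60 to 92.7 CPM in the Col-0 ecotype. All 3 libraries were thus within the Col-0 range, as they were for AT1G54050. AT1G53790 had an index of 0.12 on this split and lay above the Ler range in all 3 libraries. Of these, 1 was within the Col-0 range of 1.48 to 3.33 CPM, and those at 1.31 and 1.47 CPM were below it. AT1G53785 was divided, with 14.2 and 18.6 CPM in the Col-0 range of 13.2 to 28.7 CPM and 9.55 CPM in the Ler range of 6.54 to 11 CPM. The proteasome subunit gene PAE1 was also divided, with 1 library in each range and 1 between them, at 39.9, 52.7 and 45.5 CPM against 46.2 to 66.7 CPM in the Ler ecotype and 36.2 to 43.7 CPM in the Col-0 ecotype. The median index of the 5 was 0.28, beside 0.10 for the 458 other genes of chromosome 1 that met the same condition.

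Of the 31 members called between the wild types, asil1-1 asil2-2 was called different from Ler only at 11, from Col-0 only at 11, from both at 6 and from neither at 3. The shares were 35.5%, 35.5%, 19.4% and 9.68%, beside 30.0%, 35.9%, 12.9% and 21.2% of all genes called between the wild types. These comparisons share the libraries of asil1-1 asil2-2, Ler and Col-0. In asil1-1 asil2-2 against Ler, 14 members were higher and 8 lower, or 31.4%, beside 28.3% of all genes, 14.8% higher and 13.5% lower. The counts in asil1-1 asil2-2 against Col-0 were 16 higher and 8 lower, or 34.3%, beside 32.2%, 16.7% higher and 15.5% lower.

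The index of the members was set beside that of the other genes that differed by at least 1 between both pairs of anchors. On the rest of chromosome 1 there were 242 such genes, with a median index of 0.12, and 82.2% of them were under 0.5. The medians were 0.87 for the 12 genes in the first 3 Mb, 0.07 for the 129 genes between 3 and 20 Mb and 0.12 for the 100 genes beyond 20.4 Mb. In the adjoining windows the median was 0.09 for the 17 genes at 19 to 20 Mb and 0.26 for the 6 genes at 20.4 to 21.4 Mb. A level near Col-0 was thus shared with most of the chromosome and was not particular to the members. Medians were 0.70 on chromosome 2, 0.49 on chromosome 3, 0.44 on chromosome 4 and 0.52 on chromosome 5, over 120, 163, 156 and 229 genes. Among genes flanking ASIL2, on chromosome 3, 4 met the condition, with a median of 1.09 on the side of Ler.

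**Figure D5:**
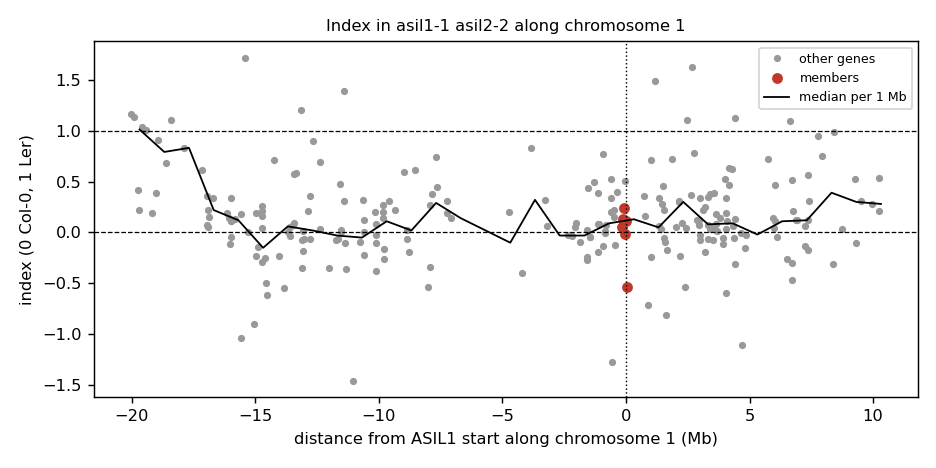
Index of asil1-1 asil2-2 between Col-0 (0) and Ler (1) on chromosome 1, for the 248 genes that differed by at least 1 on the log2 scale between both pairs of anchors, against the distance in Mb from the start of ASIL1; red points are the 6 members and the line is the median per 1 Mb. The line lies near 1 at the left end, where the first 3 Mb have a median of 0.87, and between -0.15 and 0.39 elsewhere, with 0.08 for the 6 members.

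A comparison added after the data were seen sets both double mutants side by side, so that both carry asil1-1 and no wild type enters. In asil1-1 asil2-2 against asil1-1 asil2-1, 9 members were higher and 8 lower, or 24.3%, beside 18.1% of all genes, 8.88% higher and 9.23% lower. MVP1 was higher by 0.60 ± 0.111 on the log2 scale, with 59.5, 78.1 and 75.9 CPM in asil1-1 asil2-2 against 47.9, 47.7 and 45.5 CPM in asil1-1 asil2-1 and an adjusted p of 0.0007089 by edgeR. GLL22, a lipase-like protein of endoplasmic reticulum bodies, was higher by 3.06 ± 0.581, with 25.1, 41.1 and 29.5 CPM against 8.05, 2.28 and 1.57 CPM and an adjusted p of 0.00197. These were the 2 of 17 calls that held under all 15 alternatives. AT1G53790, AT1G53870, AT1G54050 and AT1G54120, which differed from both Ler groups, were not called here, with log2 differences of -0.20 ± 0.371, 0.15 ± 0.311, 0.09 ± 0.3 and 0.03 ± 0.442.

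The remaining comparisons show how often members differed between lines in any case. In asil1-1 asil2-1 against Col-0, 15 members were higher and 15 lower, or 42.9%, beside 39.2% of all genes, 20.5% higher and 18.8% lower. The 5 higher members with the smallest p were AT1G53645, AT1G53800, PES1, ABCD2 and AT1G54220, by 0.54 to 1.08 on the log2 scale. The 5 lower ones were ACP2, the dehydrin gene AT1G54410, NRPB8A, a shared subunit of RNA polymerases, AT1G54320 and AT1G54500, by -1.06 to -0.41. AT1G54410 had 366, 373 and 321 CPM in asil1-1 asil2-1, 281, 367 and 398 CPM in asil2-1 and 608, 629 and 816 CPM in Col-0. In the lines with asil2-1 it was thus as low without asil1-1 as with it. The single mutant asil1-1 was not called different from Col-0 at this gene, with log2 differences of -0.22 to 0.17 over 16 alternatives. In asil2-1 against Col-0 the counts were again 15 and 15, or 42.9%, beside 41.3%, 21.9% higher and 19.3% lower, although asil2-1 carries no asil1-1 allele. In asil2-2 against Ler 1 member was called (1.43%), beside 5.96% of all genes, 2.39% higher and 3.57% lower. It was SPL2, an E3 ubiquitin ligase, lower with 9.22, 10.7 and 10.5 CPM in asil2-2 against 15.3, 14.3 and 15.1 CPM in Ler, a log2 difference of -0.55 ± 0.105 with an adjusted p of 0.00333 by edgeR. No member was higher by edgeR, while 4 were at an unadjusted p under 0.05 and DESeq2 called 1.

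By role, 6 of 7 listed GDSL lipases were measured. The role lists are short, so their counts are not read as a result about a role. Over all genes 17.3% were called in asil1-1 against Col-0, 39.2% in asil1-1 asil2-1 against Col-0 and 41.3% in asil2-1 against Col-0. The share was 6.21% in asil1-1 asil2-1 against asil2-1. In asil1-1 asil2-2 it was 23.3% against asil2-2 and 18.1% against asil1-1 asil2-1. In asil1-1 against Col-0, GLL22 was lower and none higher, in asil1-1 asil2-1 against Col-0 GLL22 and GLIP3 were lower, in asil2-1 against Col-0 GLL22 was lower, and in asil1-1 asil2-1 against asil2-1 none was called by edgeR. In asil1-1 asil2-2 against asil2-2, GLIP3 and MVP1 were higher, and against asil1-1 asil2-1 GLIP3, GLL22 and MVP1 were. GLIP5, AT1G54010 and AT1G54020 were called in none of these. AT1G54010 had 43.0, 60 and 96.3 CPM in asil1-1 asil2-2 and 53.6, 52.9 and 80.0 CPM in asil2-2, a wider spread within asil1-1 asil2-2 than between the lowest and the highest group mean, 47.0 CPM in Ler and 72.1 CPM in asil2-1.

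The list of protein turnover and chaperones held RPT1A, PAE1, AT1G54050 and ATG12A. None of these 4 was called in asil1-1 against Col-0 or in asil1-1 asil2-1 against asil2-1, and in asil1-1 asil2-2 against asil2-2 AT1G54050 was higher. Over all genes the shares called were 17.3%, 6.21% and 23.3% in the same order. Of members outside the list with a similar annotation, the proteasome ATPase-like AT1G53780 was higher in asil1-1 against Col-0, by 0.26 ± 0.0906, and in asil1-1 asil2-2 against asil2-2, by 0.71 ± 0.0899. The first of these calls held under 3 of 16 alternatives and the second under all 15. The ubiquitin ligase SPL2 was higher in asil1-1 asil2-2 against asil2-2, by 0.34 ± 0.105. RPT1A, an ATPase of the proteasome's regulatory particle, had 140, 157 and 149 CPM in asil1-1 against 144, 144 and 145 CPM in Col-0. Of 6 measured transcription genes of 7 listed, none was called in asil1-1 against Col-0 or in asil1-1 asil2-2 against asil2-2 by edgeR, and RAP2.12 was lower in asil1-1 asil2-1 against asil2-1. AT1G54260, annotated as a winged-helix transcription factor but not on the list, was higher in asil1-1 against Col-0, by 0.44 ± 0.128. Of 6 measured genes of RNA and translation of 8 listed, XRN4 was higher in asil1-1 against Col-0, with 61.8, 66.1 and 72.5 CPM against 48.5, 50.5 and 46.0 CPM, a log2 difference of 0.46 ± 0.132. It was also called higher in asil2-1 against Col-0, with 74.5, 67.3 and 65.2 CPM in asil2-1. The spliceosome-like AT1G54380, higher in asil1-1 against Col-0 and in asil1-1 asil2-1 against asil2-1 as given above, was not on this list. The cyclophilin CYP59 was higher in asil1-1 asil2-2 against asil2-2, by 0.40 ± 0.117.

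Of 12 genes of metabolism and organelles, 2 were higher and 2 lower in asil1-1 against Col-0, 1 was higher and 1 lower in asil1-1 asil2-1 against asil2-1, and 1 was higher and 3 lower in asil1-1 asil2-2 against asil2-2. Over all genes the shares called were 17.3%, 6.21% and 23.3% in the same order. AT1G54220 changed in opposite directions, being higher in asil1-1 asil2-1 against asil2-1 and lower in asil1-1 asil2-2 against asil2-2, where it had 32.6, 30.4 and 28.8 CPM against 38.9, 39.1 and 39.2 CPM. The rubredoxin-like gene AT1G54500 was lower in asil1-1 asil2-2, with 93.9, 100 and 71.4 CPM against 137, 117 and 126 CPM in asil2-2. Of 8 measured genes of growth and cell wall of 9 listed, PME2 was lower in asil1-1 against Col-0, none was called in asil1-1 asil2-1 against asil2-1, and WAG1, a kinase of polar auxin transport, was higher in asil1-1 asil2-2 against asil2-2, with 1.38, 3.14 and 3.54 CPM against 0.871, 1.06 and 1.92 CPM. Those groups of WAG1 overlapped, and the call held under 9 of 15 alternatives.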

How the data were processed

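Counts of reads per gene model were deposited by the authors for each of the 21 libraries, as raw counts, from polyadenylated RNA per the labels' protocols. Per the submitters' processing notes, Bowtie 0.12.7 and edgeR 3.0.8 were used with TAIR10; which tool did what, and how reads with several matches or from the opposite strand were counted, was not stated in the labels or headers. Since no file has coordinates, positions and sequences are from RefSeq's TAIR10.1.

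Model suffixes were removed. Totals ran from 6522764 to 28794135 counts per library. Genes were filtered with filterByExpr, scaled by TMM and fitted over all 7 groups with edgeR 4.0.16 (R 4.3.3, limma 3.58.1) by the quasi-likelihood test, without covariates. A gene was called at a Benjamini-Hochberg adjusted p under 0.05 over all 19589 genes tested, and all 70 members were tested. CPM values are TMM-scaled. The scripts were tested on simulated data. Alternatives were DESeq2 1.42.0, other scalings and filters, a length correction, the root score as a covariate, a replicate block, only the groups compared, and leaving out each library.

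The members, lists and rules were chosen with earlier results of these data known. Genes named are the 5 members nearest to ASIL1 on each side, members called in Ler against Col-0 with a log2 difference of at least 1, the 5 called members with the smallest p in each direction in asil1-1 against Col-0, asil1-1 asil2-1 against asil2-1, asil1-1 asil2-1 against Col-0 and asil1-1 asil2-2 against asil2-2, members called alike in the 3 asil1-1 comparisons, members called in the difference of effects, and up to 4 of each role list. Other members named were chosen after their values were seen. The comparison of asil1-1 asil2-2 with asil1-1 asil2-1, replicate 3 alone for Col-0, the index on both pairs of anchors and the split into 12 and 6 libraries by ecotype were added after the data were seen. Replicates are called biological by the series; where nothing says how they were grown, p-values measure the spread between these libraries.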

Additional observations from a re-analysis of the deposited data

Results flagged for a closer look

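The effect of asil1-1 on AT1G53625 differed between the asil2-1 and the Col-0 background, by 3.87 on the log2 scale in edgeR's test of that difference, with an adjusted p of 0.009508. The gene was higher in 3 of 3 libraries of asil1-1 asil2-1 than in any of asil2-1, and lower in 3 of 3 libraries of asil1-1 than in any of Col-0. Libraries did not overlap for 26.7% of all genes in the first pair and for 34.8% in the second. In the first pair AT1G53625 was not called, nor was it under any of 15 alternatives. Over the alternatives the difference ranged between 2.77 and 4.57.

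The effect of asil1-1 on AT1G53785 differed in the same test by -0.93, with an adjusted p of 0.04996. The gene was lower in 3 of 3 libraries of asil1-1 asil2-1 than in any of asil2-1, and higher in 3 of 3 libraries of asil1-1 than in any of Col-0. In the first pair AT1G53785 was not called, nor was it under any of 14 alternatives. Over the alternatives the difference ranged between -1.05 and -0.75, with adjusted p between 0.019 and 0.322. Col-0 replicates 1 and 2 had root marker sums of 72.7 and 84.9 CPM, above those of every other library. With the root score in the model the difference was 3.27 for AT1G53625 and -0.75 for AT1G53785. The adjusted p was then 0.0708 and 0.275 by edgeR, so neither was called. With replicate 3 alone for Col-0 the difference was 2.77 and -0.94. The part of root content in both results was not tested beyond these fits.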

How the results depend on the processing

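Counts of members called in asil1-1 against Col-0, 15 as reported, were 1 with the root score in the model, 1 with replicate 3 alone for Col-0, and 7 to 19 when 1 library was left out, with 9 and 7 without asil1-1 replicates 2 and 3 and 9 and 8 without Col-0 replicates 1 and 2. In asil1-1 asil2-1 against asil2-1, 5 as reported, they were 8 with the root score and 1 to 4 with 1 library left out, with 1 and 2 without replicates 1 and 2 of asil1-1 asil2-1, and 3, 1 and 3 without replicates 1, 2 and 3 of asil2-1. In asil1-1 asil2-2 they were 14 against Ler with only the groups compared and 14 to 23 with 1 library left out, the lowest without Ler replicate 2, and 15 against Col-0 with Col-0 replicate 3 alone. In Ler against Col-0 that setting gave 17, in asil1-1 asil2-1 against Col-0 14, and in asil2-1 against Col-0 12. The root score gave 15 in asil1-1 asil2-1 against Col-0 and 18 in asil2-1 against Col-0, where a length correction gave 19. In asil2-2 against Ler, 1 as reported, library size alone, the length correction and DESeq2 gave 2 each and the root score 3. In asil1-1 asil2-2 against asil1-1 asil2-1, 17 as reported, the root score gave 7, only the groups compared 6, and leaving out 1 library 4 to 14, with 9, 6 and 4 without replicates 1, 2 and 3 of asil1-1 asil2-1 and 10 and 6 without replicates 2 and 3 of asil1-1 asil2-2. For the difference of the asil1-1 effects, 2 as reported, a filter at 1 CPM, no filter and the length correction gave 1 each, the root score and Col-0 replicate 3 alone 0, DESeq2 5, and leaving out 1 library 1 to 7, with 7 without Col-0 replicate 3 and 4 without asil1-1 replicate 1. The median index, 0.24 as reported, was 0.60 with a minimum log2 difference of 0.5 and 0.47 with Col-0 replicate 3 alone. On the second anchors it was 0.13 for the 11 members. On the wild types it was 0.08 for the 6 members that differed in both pairs of anchors. These 6 were the members with a low index. Leaving out 1 library gave 0.11 to 0.39 for the 11. The median was 0.11 and 0.39 without replicates 1 and 3 of asil1-1 asil2-2, and 0.39 without Col-0 replicate 1. Against Col-0, the length correction turned MSRB1 to 0.03 in asil1-1 asil2-2, MSRB1 to 0.42, AT1G53780 to -0.05 and AT1G54290 to 0.50 in asil1-1 asil2-1, and MSRB1 to 0.34, TAFII21 to 0.43, ATG12A to 0.17 and AT1G54290 to 0.60 in asil2-1, while Col-0 replicate 3 alone turned PME2 to 0.12 in asil1-1 asil2-1. The cause was not tested. Single genes stayed on their side of the threshold in 11608 of the alternative values, fell short of it in 570, passed it in 175 and reversed in 9. Replicate numbers did not pair the libraries, as in no comparison were all 3 correlations of same-numbered libraries over 0.1, and with a replicate block the counts of calls were 16, 6 and 18 in the 3 comparisons of asil1-1 lines with their backgrounds and 3 for the difference of effects. Members with few counts, such as GLIP3, AT1G53625 and AT1G53790, are limited by depth.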
